A study of Mus musculus with 6 samples.

Results

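The messenger RNAs of the translation factors were examined in mouse metaphase II oocytes that had matured in culture (IVM) or in the animal (IVO). The factors were taken by name from the rows with Ensembl identifiers: symbols beginning Eif1 to Eif6, Eef1 or Eef2, together with the release factors Etf1, Gspt1 and Gspt2. Eif4enif1, the eIF2 kinases and pseudogenes marked -ps were left out. This gave 87 of the 60193 rows in the table, of which 53700 carry Ensembl identifiers, and 59 of the 87 had a mean level of at least 1 FPKM (fragments counted per length of transcript and scaled to the size of the library) and were tested. The annotation lists 85 of the 87 as protein coding, Eif1ad9 as an unprocessed pseudogene and Eif2c5, whose name is an old one for an Argonaute entry, as a long noncoding RNA.

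All oocytes came from female ICR mice aged 42 to 45 weeks, an age near the end of reproductive life. Both groups were primed with 5 IU PMSG. IVM oocytes were stripped of their cumulus cells at the germinal vesicle stage and cultured for 12 h in M16 medium without melatonin, whereas IVO oocytes were ovulated after a further hCG injection and collected from the oviduct 14 h later, with cumulus cells dispersed by hyaluronidase. Each of the 3 samples per group pooled 20 oocytes from 3 mice, so the spread between samples is a spread between pools, and culture, loss of the cumulus cells, hCG and the time of collection differ together between the groups and cannot be told apart.

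Translation begins when eIF2 carries the initiator tRNA to the small ribosomal subunit, eIF3 and the start-site factors eIF1, eIF1A and eIF5 hold and scan, and the cap-binding complex eIF4F (eIF4E, the scaffold eIF4G and the helicase eIF4A) recruits the mRNA. eIF2B reloads eIF2 with GTP, 4E-binding proteins compete with eIF4G for eIF4E, and the eEF1 and eEF2 factors then drive elongation until eRF1 and eRF3 release the chain. Maturing oocytes do not transcribe, and stored mRNAs are translated, kept silent or degraded, with poly(A) tail length as a main control. Eif4e1b encodes a cap-binding protein of oocytes that is known for holding mRNAs in a silent state. The libraries were primed on poly(A) tails, so a change in mRNA amount, a change in tail length and, in pools, less RNA per cell or fewer cells that hold an mRNA cannot be told apart here.

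One sequence that controls tail length in maturing oocytes is the cytoplasmic polyadenylation element (CPE). TTTTAT or TTTTAAT, on the transcript's own strand, was found within the last 100 bases of the Ensembl canonical transcript of 9 of the 59 tested factors (15.3%), beside 1928 of the 10303 tested genes that have such a transcript (18.7%). The 9 were Eef1a1, Eif1a, Eif1ad15, Eif1ax, Eif2d, Eif3e, Eif3j2, Eif3m and Gspt1. Windows of 30 bases are shown for those of the set that give its range: the start-site factor Eif1ax, the eIF3 subunits Eif3e and Eif3m, the elongation factor Eef1a1 and the release factor Gspt1. Each runs 5′ to 3′ on the transcript (GRCm39, GENCODE vM39), with the element in capitals.
Eif1ax, chrX:158172883-158172912, plus strand: attcagtggatgTTTTATgctgcacaaata
Eif3e, chr15:43113434-43113463, minus strand: ctatgattaattTTTTATtttgcttgaatt
Eif3m, chr2:104830046-104830075, minus strand: agatacctgaatTTTTATgaaaatgatttt
Eef1a1, chr9:78385788-78385817, minus strand: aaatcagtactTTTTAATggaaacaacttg
Gspt1, chr16:11034110-11034139, minus strand: aaattcaggatTTTTAATaaagatcaagag
The window lies wholly in the 3′ untranslated region in Eif1ax, Eif3e, Eef1a1 and Gspt1. It does not in Eif3m, nor in Eif2d, which is not printed, and both are still counted among the 9. In Gspt1 the element runs into the letters AATAAA of a poly(A) signal. The element ended 14 bases from the annotated transcript end in Eif3e and 69 bases from it in Eef1a1. As a description, the 9 factors with the element had a median log2FC (IVO minus IVM) of -0.63 and 1 of them, Eif3m, was called, whereas the 50 without it had a median of -0.11 with 10 called lower and 1 higher. Over all tested genes the corresponding medians were -0.02 and -0.20, with 12.6% called lower and 2.5% higher among those with the element and 19.5% and 2.4% among those without, so the counts of factors were near these shares.

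The factors spanned a wide range of levels. A mean of 100 FPKM or more was found for 18 factors, 19 lay from 10 to under 100, 22 from 1 to under 10, 18 were above 0 but under 1, and 10 were listed at 0 in all 6 samples. The highest was Eif1, at rank 102 of all rows, followed by Eif3k, Eif2b3, Eif5, Eif4g3 and Eif2b1. Eef1a1, the main carrier of aminoacyl-tRNA and one of the most abundant mRNAs of most cells, was at rank 7657. The factors listed at 0 were Eef1a2, the eEF1A form of muscle and nerve, the Y-linked Eif2s3y, Eif2c5 and 7 of the Eif1ad copies.

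As a set, the factors were called lower in IVO about as often as genes in general. By limma on log2(FPKM + 1), with a Benjamini-Hochberg adjusted p under 0.05 as the call, 11 of 59 (18.6%) were lower in IVO, beside 21.5% of all 18818 tested genes, and 1 was higher (1.69%), beside 1.87%. With the further limit of an absolute log2FC of 1 (DEGs), 9 were lower, beside 17.9%, and 1 higher, beside 0.606%. The other 47 factors did not pass. All 3 IVO values lay below all 3 IVM values for 18 factors (30.5%), beside 32.6% of tested genes, and above them for 10 (16.9%), beside 9.62%. The median log2FC was -0.14 over the tested factors, -0.30 over all tested genes and -0.18 over the 13154 of these with Ensembl identifiers.

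The split of calls depended on how the libraries were scaled. The deposited FPKM summed to 1826738 to 2111776 per IVM sample and to 1560813 to 1643682 per IVO sample, and the median log2FC of all genes moved from -0.30 to -0.04 under median-ratio scaling and to 0.17 under quantile normalization. Under median-ratio scaling 8 factors were lower, beside 13.2% of all genes, and 6 higher, beside 7.14%. Under quantile normalization 7 were lower, beside 10.7%, and 14 higher, beside 14.8%, and the median of the factors turned from -0.14 to 0.14 and 0.36. The factors that crossed to a higher call under median-ratio scaling were Eif1, Eif5, Eif3a, Eif3e and Eif4a2, with Eif2s1 higher throughout, and Eif3k, Eif3m and Eif4g3 lost their lower call.

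**Figure D1:**
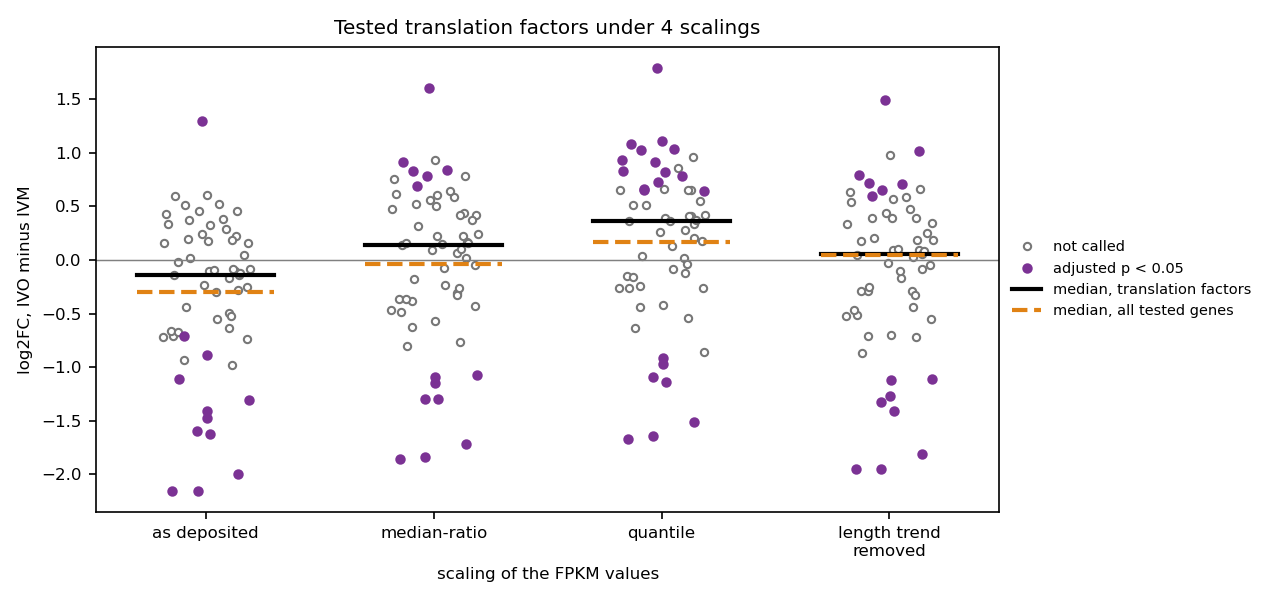
log2FC (IVO minus IVM) of the 59 tested translation factors under 4 scalings of the FPKM values. Each point is a factor, filled where adjusted p was under 0.05, and the lines mark the median of the factors (solid) and of all tested genes (dashed). The medians of the factors were -0.14, 0.14, 0.36 and 0.06 from left to right, so small differences change sign with the scaling while the most negative values and Eif2s1 do not.

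**Figure D2:**
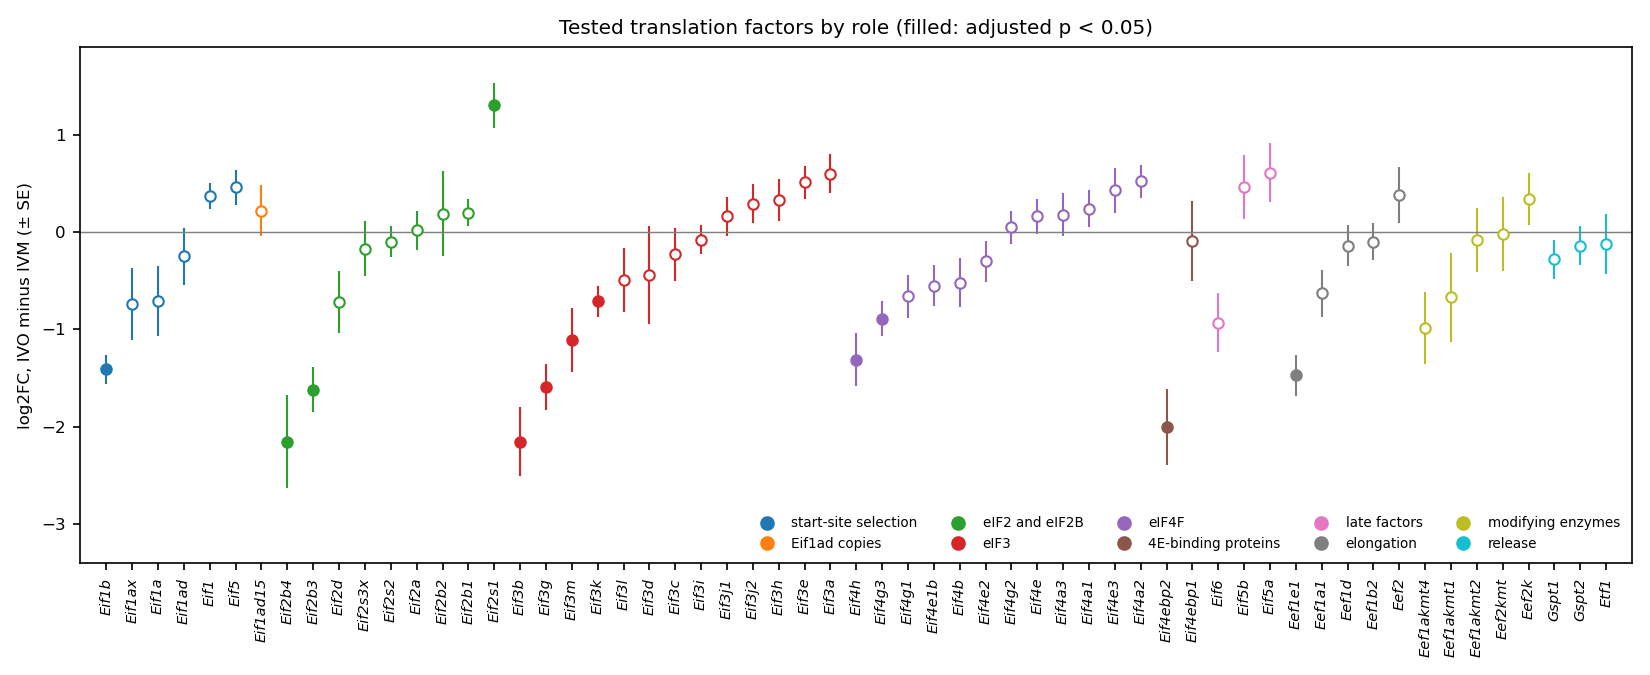
log2FC (IVO minus IVM) with its standard error for each of the 59 tested translation factors, on FPKM as deposited, grouped by role and coloured accordingly. Filled points passed an adjusted p of 0.05: 11 lie below 0 and Eif2s1 alone above, and each large complex holds both called and uncalled subunits.

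Among the 6 factors of start-site selection, 1 was lower in IVO, none was higher and 3 had an unadjusted p under 0.05. For each count by role here and below, the share of all tested genes was 21.5% lower and 1.87% higher on FPKM as deposited. Under the other scalings the shares are those given above, and for the unadjusted p no share was counted. Eif1b (ENSMUSG00000006941, chr9:120306993-120324396, plus strand), a close relative of the scanning factor eIF1, stood at 510.85, 526.97 and 541.48 FPKM in IVM and at 182.36, 201.39 and 209.19 FPKM in IVO. Its IVM values, 526 ± 15.3 FPKM (SD, n = 3), were close together and far above the IVO values of 198 ± 13.8 FPKM. The log2FC was -1.41 ± 0.15 (SE, adjusted p = 0.00173, limma), and the call held in all 6 fits that left out 1 sample. Exons of Gm64043 on the same strand and of D830035M03Rik on the other strand cover 21.5% of the canonical Eif1b transcript. Reads there cannot be assigned to 1 gene.

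Eif1 itself (chr11:100210670-100212922, plus strand), which guards start-codon fidelity, went the other way without passing. Its values were 2261.73, 2145.02 and 2126.81 FPKM in IVM against 2528.40, 3040.66 and 2885.73 FPKM in IVO, with a log2FC of 0.37 ± 0.13 (adjusted p = 0.0829, limma). The groups did not overlap, and under median-ratio scaling the adjusted p was 0.0267. Eif1 supplied 20.8% to 20.9% of the summed FPKM of all factors in the IVM samples and 26.9% to 31.4% in the IVO samples. Exons of Gm74295 and Gm74298 on the other strand cover 37.3% of the canonical Eif1 transcript.

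Eif5, which triggers GTP hydrolysis by eIF2 at the start codon, was at 642.50, 497.66 and 738.07 FPKM in IVM and 895.65, 851.08 and 799.13 FPKM in IVO. All IVO values were above all IVM values, but the log2FC of 0.46 ± 0.18 did not pass (adjusted p = 0.115, limma). The eIF1A genes gave overlapping groups. Eif1ax, the X-linked form, was at 18.17, 39.47 and 44.93 FPKM against 19.04, 24.00 and 14.27 FPKM, and Eif1a, which lies on chromosome 18, at 2.63, 2.43 and 5.60 FPKM against 1.01, 2.75 and 1.51 FPKM. Eif1ad, an eIF1A-like nuclear protein gene, had a log2FC of -0.25.

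The 17 numbered Eif1ad copies all lie on chromosome 12. Eif1ad15 alone reached the test, at 2.07 to 2.60 FPKM in IVM and 2.38 to 4.12 FPKM in IVO, with a log2FC of 0.22 that did not pass. The other 9 detected copies had means between 0.00667 and 0.373 FPKM. These copies are alike in sequence, so the share of reads given to each one is uncertain.

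In the ternary-complex group the regulated subunit of eIF2 was the only factor called higher in IVO, and the eIF2B subunits parted. Eif2s1 (ENSMUSG00000021116, chr12:78907681-78935018, plus strand) encodes eIF2 alpha, the subunit that stress kinases phosphorylate. It was at 12.27, 17.06 and 16.16 FPKM in IVM (mean 15.2 ± 2.55, SD, n = 3) and at 40.13, 45.17 and 31.07 FPKM in IVO (38.8 ± 7.14). Every IVO value was above every IVM value, 2.56 times higher on average. The log2FC was 1.3 ± 0.23 (adjusted p = 0.00855, limma), it was called in all 6 fits that left out 1 sample, and it was 1.60 and 1.79 under median-ratio scaling and quantile normalization. Exons of Atp6v1d and Plek2 on the other strand cover 19.9% of its canonical transcript, and the kit does not mark strand, so reads there cannot be assigned to either gene.

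The other eIF2 subunits did not pass. Eif2s2, for eIF2 beta, lay between 390.64 and 515.77 FPKM in IVM and between 404.85 and 421.11 FPKM in IVO, with a log2FC of -0.10. Eif2s3x, for eIF2 gamma, lay between 3.17 and 3.41 FPKM in IVM and between 1.71 and 4.07 FPKM in IVO, with a log2FC of -0.17. Within IVM the mean level of Eif2s2 was 446 FPKM and that of Eif2s3x 3.29 FPKM, although the subunits sit in one complex in equal number.

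Of the 5 subunits of eIF2B, the exchange factor for eIF2, 4 were tested and 2 were lower in IVO. Eif2b3 (ENSMUSG00000028683, chr4:116876588-116945947, plus strand), for the gamma subunit, was at 1318.84, 1247.49 and 882.32 FPKM in IVM and 414.71, 289.29 and 416.11 FPKM in IVO. No IVO value came near the IVM values, and the log2FC was -1.62 ± 0.23 (adjusted p = 0.00421, limma), called in all 6 fits without 1 sample. Eif2b4 (ENSMUSG00000029145, chr5:31344902-31350774, minus strand), for the delta subunit, was at 96.26, 133.85 and 85.20 FPKM against 45.89, 10.74 and 22.42 FPKM. Its groups did not overlap, but the IVO values differed widely among themselves (26.4 ± 17.9 FPKM, SD, n = 3). The log2FC was -2.15 ± 0.48 (adjusted p = 0.0192, limma), and the adjusted p was 0.067, 0.0773 and 0.0557 without IVM sample 1, 2 or 3. Exons of Snx17 on the other strand cover 11.8% of the canonical Eif2b4 transcript.

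Eif2b1, for the alpha subunit, was at 718.04, 676.88 and 609.70 FPKM in IVM and 759.38, 758.78 and 781.35 FPKM in IVO. The IVO values were all higher, by a log2FC of 0.20 ± 0.14 that did not pass (adjusted p = 0.342, limma). Eif2b2 had a log2FC of 0.19 at 3.36 FPKM, and Eif2b5, for the catalytic epsilon subunit, was at 0.12 to 0.38 FPKM and was not tested. Eif2a and Eif2d, which can place initiator tRNA without eIF2, had log2FC of 0.02 and -0.72, neither called.

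**Figure D3:**
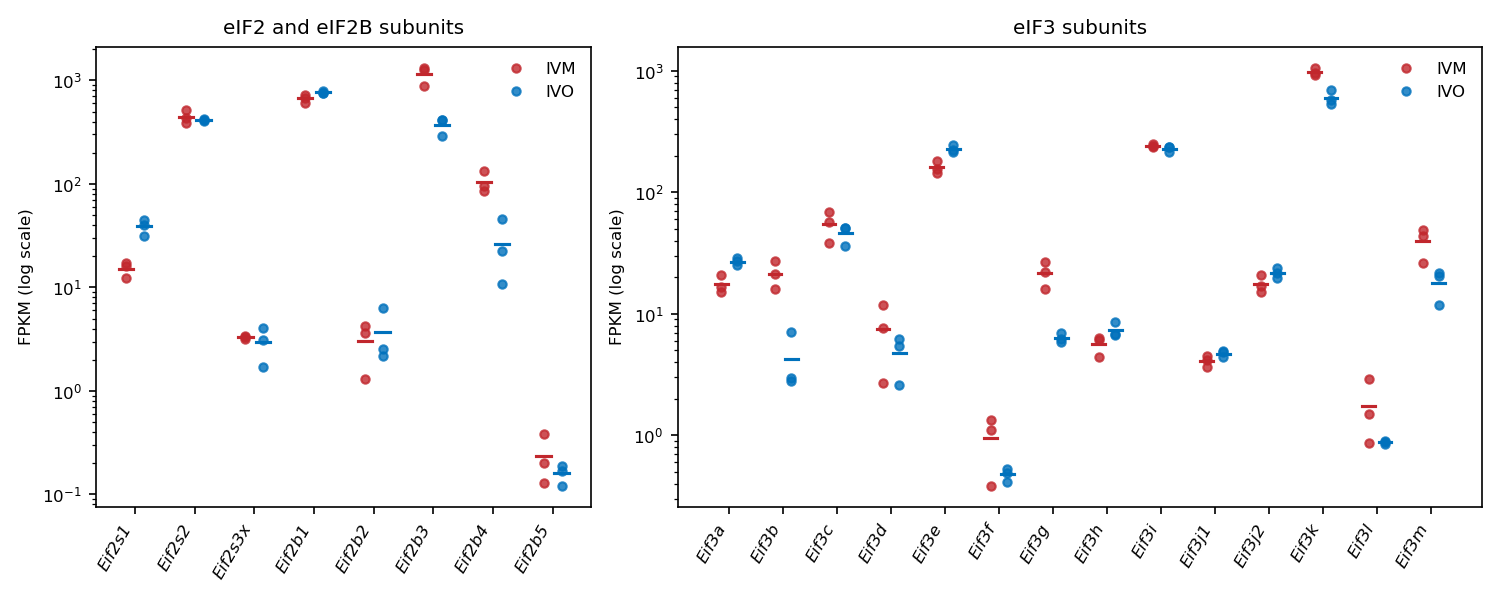
FPKM on a log axis of the subunits of eIF2 and eIF2B (left) and eIF3 (right) in the 3 IVM and 3 IVO samples, with a line at each group mean. Subunits of one complex lie orders of magnitude apart. Eif2b3, Eif2b4, Eif3b, Eif3g, Eif3i, Eif3k and Eif3m sit lower in IVO with no overlap, all but Eif3i called. Eif2s1, Eif2b1, Eif3a, Eif3e and Eif3h sit higher with no overlap, and of these only Eif2s1 was called.

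The eIF3 subunits, which form the scaffold on the small ribosomal subunit, gave 4 lower calls among 13 tested genes and no higher call. The shares over all tested genes were 21.5% and 1.87%. Of the 13, 6 had an unadjusted p under 0.05, and 2 lower and 2 higher calls were made under median-ratio scaling. Eif3b (ENSMUSG00000056076, chr5:140405057-140429117, plus strand), a core subunit, was at 21.18, 26.95 and 15.93 FPKM in IVM and 2.77, 2.94 and 7.06 FPKM in IVO. The IVO mean was 0.199 times the IVM mean, the values did not overlap, and the log2FC was -2.15 ± 0.35 (adjusted p = 0.00698, limma).

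Eif3g (ENSMUSG00000070319, chr9:20805645-20809927, minus strand), an RNA-binding core subunit, was at 26.78, 15.91 and 21.99 FPKM in IVM and 6.14, 6.99 and 5.88 FPKM in IVO. All IVO values fell well below the IVM range, with a log2FC of -1.59 ± 0.24 (adjusted p = 0.00508, limma). Both Eif3b and Eif3g were called in all 6 fits that left out 1 sample and under both other scalings.

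Eif3k (ENSMUSG00000053565, chr7:28670790-28681353, minus strand), a small peripheral subunit and the second highest factor by mean level, was at 962.36, 1057.93 and 922.03 FPKM against 576.61, 536.24 and 697.78 FPKM. The groups did not overlap and the log2FC was -0.71 ± 0.16 (adjusted p = 0.0196, limma). This call did not hold in every fit that left out 1 sample. The adjusted p was 0.055 to 0.0751 without IVM sample 1, IVM sample 2, IVO sample 1 or IVO sample 2. It was 0.0383 without IVM sample 3 and 0.023 without IVO sample 3 (limma). Under median-ratio scaling the adjusted p was 0.165 with a log2FC of -0.38.

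Eif3m (ENSMUSG00000027170, chr2:104818164-104847462, minus strand), whose element is printed above, was at 26.40, 43.93 and 49.11 FPKM in IVM and 20.39, 21.63 and 11.70 FPKM in IVO. Its groups did not overlap, with a log2FC of -1.11 ± 0.33 (adjusted p = 0.0477, limma). The adjusted p was over 0.05 when any 1 sample other than IVM sample 1 was left out, ranging from 0.0682 to 0.138, and was 0.112 under median-ratio scaling. Exons of Ccdc73 on the other strand cover 20.6% of its canonical transcript.

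Eif3a, the largest subunit, and Eif3e lay higher in IVO without overlap, at log2FC of 0.60 ± 0.20 and 0.51 ± 0.17, and neither passed (adjusted p = 0.067 and 0.0665, limma). Under median-ratio scaling both did, at adjusted p of 0.0219 and 0.0268. Eif3j1 was at 4.18, 3.62 and 4.49 FPKM against 4.89, 4.81 and 4.38 FPKM, and Eif3j2, on chromosome 18, at 16.97, 15.12 and 20.81 FPKM against 23.73, 21.62 and 19.52 FPKM. These genes for the loosely bound subunit are close copies, so the division of reads between them is uncertain. Eif3c, Eif3d, Eif3h, Eif3i and Eif3l ranged from -0.49 to 0.33 in log2FC and none was called. Of these, Eif3h lay higher and Eif3i lower in IVO without overlap. Eif3f, at 0.38 to 1.34 FPKM, was not tested.

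The cap-binding group held 14 factors, of which 12 were tested, 2 were lower in IVO and none higher, with 5 at an unadjusted p under 0.05. Under quantile normalization none was lower and 3 were higher. Eif4e1b (ENSMUSG00000074895, chr13:54931811-54936272, plus strand), the oocyte cap-binding gene, was at 28.04, 33.20 and 42.35 FPKM in IVM (34.5 ± 7.25, SD, n = 3) and 24.50, 20.61 and 24.14 FPKM in IVO (23.1 ± 2.15). The IVO values were all below the IVM values. The log2FC was -0.55 ± 0.21 and did not pass (adjusted p = 0.112, limma). It was -0.23 under median-ratio scaling, -0.08 under quantile normalization and -0.17 with the trend on transcript length removed. The table lists Eif4e1b with a length of 841 bases, whereas its canonical transcript has 2139, and FPKM is per listed base. Other factors differ too, such as Eif2b3 (1555 listed, 3000 canonical), Eif3h (1295 and 3022) and Gspt1 (2898 and 6853). Levels and ranks of different genes carry this limit.

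Eif4e, the standard cap-binding protein, was at 202.47, 220.33 and 235.85 FPKM in IVM and 283.76, 252.24 and 203.79 FPKM in IVO. Eif4e3, a family member with a divergent cap pocket, was at 430.37, 251.57 and 399.31 FPKM against 467.94, 454.24 and 502.73 FPKM, and Eif4e2, which represses capped mRNAs, at 2.92, 3.30 and 2.95 FPKM against 2.35, 2.32 and 2.19 FPKM. The Eif4e groups overlapped, the Eif4e3 groups did not (higher in IVO), and neither did those of Eif4e2 (lower in IVO), yet none passed the test. Per length, Eif4e1b made up 4.22%, 6.53% and 6.22% of the summed FPKM of the 4 family members in IVM and 3.15%, 2.83% and 3.29% in IVO.

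The scaffold and helicase genes differed among themselves. Eif4g3 (ENSMUSG00000028760, chr4:137720333-137935819, plus strand), the main eIF4G mRNA here, was at 1067.13, 935.20 and 794.53 FPKM in IVM and 460.55, 455.22 and 596.62 FPKM in IVO. The groups did not overlap and the log2FC was -0.89 ± 0.18 (adjusted p = 0.015, limma). The adjusted p was 0.0517, 0.0528 and 0.0557 without IVM sample 1, IVO sample 1 or IVO sample 2, and 0.0951 under median-ratio scaling.

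Eif4g1, the general scaffold, was at 17.94, 11.84 and 13.80 FPKM against 7.97, 8.43 and 9.86 FPKM, and Eif4g2, which lacks the eIF4E site, at 244.10, 286.41 and 319.58 FPKM against 290.00, 274.74 and 312.05 FPKM. The log2FC of Eif4g1 was -0.66 without overlap, that of Eif4g2 was 0.05 with overlap, and neither was called. Eif4g3 supplied 75.5% ± 4.93 of the summed FPKM of these 3 genes in IVM and 62.4% ± 2.23 in IVO (SD, n = 3).

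Eif4a1, the main helicase, was at 377.33, 249.59 and 301.65 FPKM in IVM and 352.01, 358.33 and 371.59 FPKM in IVO. Eif4a2 was at 200.98, 245.11 and 191.38 FPKM against 285.15, 307.91 and 317.51 FPKM. The Eif4a2 groups did not overlap, with a log2FC of 0.52 ± 0.17 (adjusted p = 0.061, limma) that reached an adjusted p of 0.026 under median-ratio scaling. Exons of Gm59795 and Rfc4 on the other strand cover 25.3% of the canonical Eif4a2 transcript. Eif4h (ENSMUSG00000040731, chr5:134648575-134668400, minus strand), a cofactor of the helicase, was the other lower call: 5.27, 5.93 and 5.39 FPKM in IVM against 2.52, 1.60 and 0.99 FPKM in IVO. The groups stood clear of each other at a log2FC of -1.31 ± 0.27 (adjusted p = 0.0143, limma). Eif4h was called in all 6 fits without 1 sample, at adjusted p up to 0.0485, but not under quantile normalization (0.0505, limma). Eif4b, the related cofactor, had a log2FC of -0.52 that did not pass, Eif4a3, of the exon junction complex, one of 0.18, and its copies Eif4a3l1 and Eif4a3l2 were at 0 to 0.25 FPKM.

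The 4E-binding proteins gave 1 lower call among 2 tested genes. Eif4ebp2 (ENSMUSG00000020091, chr10:61264032-61288567, minus strand) was at 11.96, 12.97 and 13.62 FPKM in IVM (12.8 ± 0.836, SD, n = 3) and at 0.85, 3.84 and 3.63 FPKM in IVO (2.77 ± 1.67). IVO sample 1 was the lowest, and even the highest IVO value was far below the IVM values. The log2FC was -2.0 ± 0.39 (adjusted p = 0.0117, limma), called in all 6 fits without 1 sample and under both other scalings. Eif4ebp1, the best known of these eIF4E inhibitors, was at 3.55, 2.79 and 4.39 FPKM against 3.45, 1.38 and 6.24 FPKM, with overlapping groups and a log2FC of -0.09 that turned positive under both other scalings. Eif4ebp3, on chromosome 18, was at 0 to 0.46 FPKM.

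**Figure D4:**
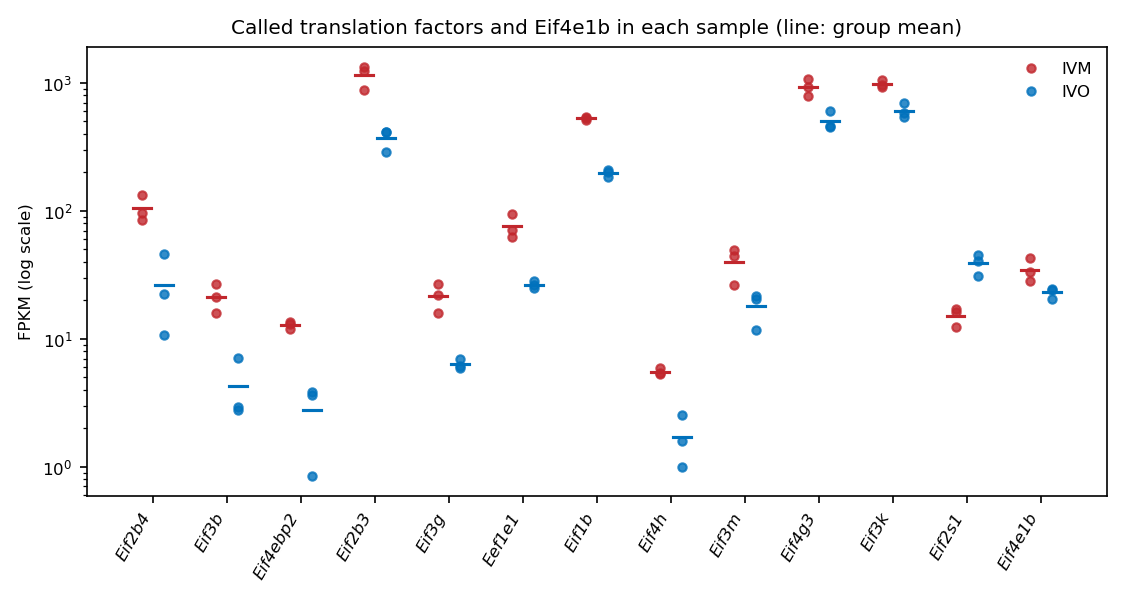
FPKM on a log axis in each of the 3 IVM and 3 IVO samples for the 12 called translation factors, from the most negative to the most positive log2FC, and for Eif4e1b, which was not called. Lines mark group means, and no called factor has overlapping groups.

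None of the 3 tested late factors passed, with 1 at an unadjusted p under 0.05, and 1 was higher under quantile normalization. Eif5a, the hypusine-bearing factor, was at 227.79, 103.95 and 195.00 FPKM in IVM and 248.91, 288.54 and 230.04 FPKM in IVO, narrowly without overlap, at a log2FC of 0.61 ± 0.30 (adjusted p = 0.191, limma). Its relative Eif5a2 was at 0.48, 0.47 and 0.50 FPKM against 0.32, 0.38 and 0.33 FPKM, below the level for testing. Eif5b, the subunit-joining GTPase, had a log2FC of 0.46, and Eif6, which keeps large subunits from joining early, had -0.93 (adjusted p = 0.0623, limma) with all IVO values below the IVM values.

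Elongation factors gave 1 lower call among 5 tested genes. Eef1e1 (ENSMUSG00000001707, chr13:38828183-38843034, minus strand), an accessory protein of the multi-tRNA synthetase complex rather than of the ribosome's own cycle, was at 62.43, 94.39 and 70.85 FPKM in IVM and 24.87, 26.05 and 28.45 FPKM in IVO. The IVO values were tightly grouped at 26.5 ± 1.82 FPKM (SD, n = 3) and lay below all IVM values. The log2FC was -1.47 ± 0.21 (adjusted p = 0.00447, limma), called in all 6 fits without 1 sample. Eef1a1 was at 14.03 to 21.18 FPKM in IVM and 9.04 to 12.82 FPKM in IVO, a log2FC of -0.63 that did not pass (adjusted p = 0.0997, limma). Eef1b2 and Eef1d, for subunits of the eEF1A exchange factor, had -0.10 and -0.14, Eef2, the translocase, had 0.38, and Eef1g, at 0.42 to 1.35 FPKM, was not tested.

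Neither the enzymes that modify elongation factors nor the release factors had a call. Of the 5 tested enzymes 1 had an unadjusted p under 0.05, and under quantile normalization Eef2k, the kinase that inhibits eEF2, was called higher. Their log2FC ran from -0.98 for the lysine methyltransferase Eef1akmt4, which shares 57.6% of its canonical transcript with exons of other genes, to 0.34 for Eef2k. Eef1akmt1, Eef1akmt2 and Eef2kmt lay between, and Eef1akmt3 and Eef1aknmt were below the level for testing. None of the 3 release factors had an unadjusted p under 0.05. Gspt1, for eRF3a, was at 18.38, 22.74 and 24.99 FPKM against 18.13, 15.81 and 19.60 FPKM, and Gspt2, for eRF3b, at 22.13, 21.56 and 30.06 FPKM against 23.17, 20.99 and 21.77 FPKM. Etf1, for eRF1, on chromosome 18, had a log2FC of -0.12.

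Ratios of related factors within one library do not depend on the scaling of that library. They can still carry a trend with transcript length, because some paired genes differ in listed length. Eif4e1b is listed at 841 bases and Eif4e at 4991, Eif5a2 at 5027 and Eif5a at 852. Of 14 listed pairs 12 were above 0 in all samples, and with 3 samples a group the two-sided exact permutation test cannot give a p below 0.1. That smallest p was reached by 6 pairs, with an adjusted p of 0.2 over the 12, so none passes. The log2 ratio of Eif1b to Eif1 was -2.15, -2.03 and -1.97 in IVM and -3.79, -3.92 and -3.79 in IVO, a difference of -1.78, and spread little within each group. Eif4ebp2 over Eif4ebp1 differed by -2.31, with IVO values from -2.02 to 1.48. That difference was -1.52 without IVO sample 1 and -3.27 without IVO sample 2. Eif5a2 over Eif5a differed by -1.11.

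Eif4e1b over Eif4e was -2.85, -2.73 and -2.48 in IVM and -3.53, -3.61 and -3.08 in IVO, a difference of -0.72. With the trend on transcript length removed, the log2FC was -0.17 for Eif4e1b and 0.34 for Eif4e. Eif4e2 over Eif4e differed by -0.57, and Eif4g2 over Eif4g1 was the one ratio higher in IVO without overlap, by 0.77. The 6 pairs with overlapping groups differed by -0.26 to 0.28: Eif4e3 over Eif4e, Eif4a2 over Eif4a1, Eif4g3 over Eif4g1, Eif1a over Eif1ax, Eif3j2 over Eif3j1 and Gspt2 over Gspt1.

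**Figure D5:**
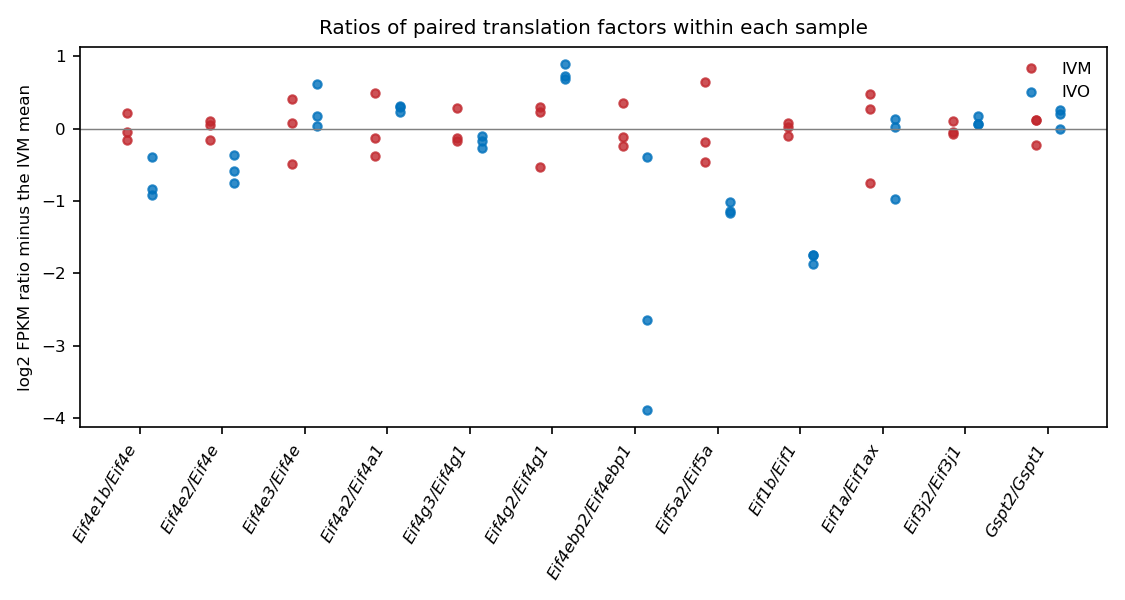
log2 FPKM ratio of 12 pairs of related translation factors in each IVM and IVO sample, after subtracting the IVM mean of the pair. The Eif1b/Eif1 points separate most for their spread (a difference of -1.78), Eif4e1b/Eif4e lies lower in IVO by -0.72, and the IVO points of Eif4ebp2/Eif4ebp1 range over several log2 units.

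Length was considered because log2FC followed transcript length over all genes (Spearman rho 0.27 across 18818 genes, which are not independent replicates). Among the 59 factors rho was 0.0739. The 13 factors listed under 1500 bases had a median log2FC of -0.55 with 4 lower calls, and the other 46 a median of -0.13 with 7. The shares of all tested genes in these length classes were not counted, so this split is not read as a trait of the factors. Inferred fragment lengths were 206.3 ± 10.5 bases in IVM and 253.7 ± 8.96 in IVO (SD, n = 3), and their part in the results was not tested. With the length trend removed, 8 factors were lower, beside 9.65% of all genes, and 7 higher, beside 6.92%.

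Among 37 other genes of translation and its control, 31 were tested, 8 were lower in IVO (6 of them DEGs) and 1, Paip1, was higher, beside the 21.5% and 1.87% of all genes. The split for this list was 4 lower and 2 higher under median-ratio scaling and 3 lower and 7 higher under quantile normalization. The DEGs with the largest falls were Paip2 (log2FC -3.05), an inhibitor of poly(A)-binding protein, Pabpc1l (-1.94), a poly(A)-binding protein of oocytes, Tsc2 (-1.84), a brake on mTOR, and Atf4 (-1.11), the transcription factor translated when eIF2 alpha is phosphorylated. The first 3 were called in all 6 fits that left out 1 sample and under both other scalings, whereas Atf4 was called in 2 of the 6 and had an adjusted p of 0.0631 under median-ratio scaling and 0.12 under quantile normalization (limma). Paip1 was called in 2 of the 6. Among the eIF2 kinases, Eif2ak1 to Eif2ak4, none passed. Of 10 factors whose mRNAs carry a terminal oligopyrimidine tract in textbooks, such as Eef1a1 and Eef2, 8 were tested and limma called none, with 3 at an unadjusted p under 0.05, a median log2FC of 0.12, and 2 called higher under median-ratio scaling. None of these 8 canonical transcripts begins, at its annotated first base, with C followed by 4 pyrimidines. That start was found in 2 of the 59 tested factors, Eif2s1 and Eif3k, beside 408 of 10303 tested genes. Where these mRNAs start in oocytes was not measured. The annotated starts therefore do not decide which of them carry the tract.

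Of 12 oocyte genes, all tested, 6 were lower in IVO, beside 21.5% of all genes, with a median log2FC of -0.92. The summed FPKM of the 12 was 17200 to 19900 in IVM and 15800 to 18600 in IVO. Most of that sum was Oosp1 (10146.44 to 15158.41 FPKM, log2FC 0.18, not called), whereas the zona pellucida genes Zp2, Zp3 and Zp1 were lower by log2FC of -3.69, -3.13 and -2.43. Of 16 cumulus and granulosa genes only Cyp19a1 and Fshr exceeded 1 FPKM, neither was called, Amh, Areg and Pgr were listed at 0 throughout, and the list summed to 24.1 to 33.9 FPKM in IVM and 30.5 to 35.7 in IVO, nearly all of it Cyp19a1 and Fshr. The cumulus expansion genes Has2 (0.04 to 0.14 FPKM in IVM, 0.17 to 0.37 in IVO), Tnfaip6 (0 to 0.14 and 0.34 to 0.49) and Ptx3 (0 to 0.03 and 0.07 to 0.17), none of them tested, were all higher in IVO without overlap. The other genes of the list that were above 0 overlapped, such as Ptgs2 (0.04 to 0.19 and 0.16 to 0.5) and Inha (0.16 to 0.86 and 0.09 to 0.41). These levels reach down to or below a floor of 3 fragments on a transcript of 1000 bases (0.196 to 0.232 FPKM). Oviduct genes summed to at most 0.39 FPKM and blood genes to at most 3.65 FPKM in any sample. The summed share of the translation factors in all FPKM was 0.489% to 0.556% in IVM and 0.602% to 0.62% in IVO. The part of these differences in the results was not tested.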

How the data were processed

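The FPKM values of 3 IVM and 3 IVO libraries were used as the authors deposited them, 1 table for the series. Per the labels and the study's methods, pools of oocytes were lysed, cDNA was made with a SMART-Seq v4 kit and libraries with Nextera XT, reads were filtered with SeqPrep and Sickle and aligned with HISAT2 2.1.0 to GRCm39, and RSEM 1.3.3 gave gene abundance. The submitters' processing notes also name DESeq2 1.24.0. The table holds no read counts, so no count test was run. Its columns of group means are the authors' and were not used. No 2 columns were identical.

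Depth was estimated from the spacing of low FPKM values over genes with 1 transcript of 500 to 4000 bases: about 16460000 to 19260000 fragments per IVM library and 17820000 to 18160000 per IVO library. At these, 71.2% to 75.4% of low values were within 0.15 of a whole fragment, too few to recover counts. A floor of 3 fragments on a transcript of 1000 bases is 0.196 to 0.232 FPKM and covers counting error only.

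limma 3.58.1 (R 4.3.3, trended eBayes, two-sided) was fitted to log2(FPKM + 1), group only, over the 18818 rows with a mean of at least 1 FPKM, with Benjamini-Hochberg adjustment over all of them. A fold change on this scale understates the change of low genes. A call is an adjusted p under 0.05, and a DEG also has an absolute log2FC of at least 1. The fit and the depth step were tested on simulated data. Pair ratios were tested by exact permutation (scipy 1.17.1), and transcript ends came from GENCODE vM39 on GRCm39. Alternatives were a pseudocount of 0.1, other filters (none, or a mean of at least 5 FPKM), median-ratio, quantile and equal-sum scaling, a lowess length trend (span 0.3), no eBayes trend, Ensembl rows only, the replicate number as a block, and each sample left out.

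The factors and lists were chosen with earlier results of these data known. By the naming rule, values per sample are given for Eif4e1b, DEGs, the called factors, the 6 highest factors and members of usable pairs, and others by role. Eif3j1 and other close copies may share reads. Exons of other genes also cover part of factors for which no overlap is given above. Such shares of the canonical transcript were 45.5% for Eif6, 38.7% for Eif4b, 27.3% for Eif2b1 and 24.9% for Eif5a, among others.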

Additional observations from a re-analysis of the deposited data

How the results depend on the processing

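Of 11 lower and 1 higher calls (9 and 1 DEGs), quantile normalization left 7 lower (5 DEGs) and gave 14 higher (5 DEGs). The higher calls were 6 under median-ratio scaling (1344 of all 18818 genes), 7 with equal sums (1083), 7 with the length trend removed (1302; 2 DEGs) and 2 at a mean of at least 5 FPKM (401 of 11711), beside 1.87% of all genes in the deposited FPKM, so higher calls rose over all genes too. The labels do not say whether same-numbered samples were paired. Deviations of same-numbered samples correlated at -0.06184, -0.0176 and -0.1072, and those of differently numbered samples at -0.02271 to 0.08085, which does not settle it. With the replicate numbers as a block 8 were lower (3027 of all genes) and 1 higher (118 of all genes). With block and length trend removed 1 was lower (1 DEG, beside 741 lower calls over all genes). Leaving out 1 sample gave 8 to 10 lower and 1 to 2 higher calls (7 to 9 lower and 1 higher DEG), the second higher call being Eif4a2 without IVM sample 2 and Eif3a without IVM sample 3. Over all genes these fits gave 2484 to 3415 lower and 109 to 288 higher calls. For 31 named genes over all settings, 439 values kept direction and call, 44 lost and 21 gained the call, and 18 changed sign, none of them called. Under quantile, median-ratio, equal-sum and length-removed settings in turn these were Eif4ebp1 (0.36, 0.15, 0.16, 0.10, and 0.10 with block and length), Gspt2 (0.34, 0.17, 0.18, 0.06, and 0.06 with block and length), Gspt1 (0.21, 0.02, 0.04 under the first 3) and Eif4e2 (0.13 under quantile). With 1 sample left out, the log2FC of Eif4ebp1 ran from -0.48 to 0.33, that of Gspt2 from -0.22 to 0.01, that of Eif4g2 from -0.05 to 0.14 and the Eif1a/Eif1ax difference from -0.64 to 0.09 (0.03 with a pseudocount of 1). The causes were not tested. Eif1b and Eif2s1 alone among the 12 called factors kept their call in every setting. Eef1e1, Eif2b3, Eif3b, Eif3g and Eif4ebp2 lost it only with block and length trend removed, at adjusted p of 0.0538 to 0.0688 (limma).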
